A study of Chlamydomonas reinhardtii with 31 samples.

Results

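Transcripts of 6 genes of acetate use, the glyoxylate cycle and gluconeogenesis were followed in the green alga Chlamydomonas reinhardtii after nitrogen was withdrawn. The genes were chosen by locus from a list of 8 IDs, and 6 of the 8 were found among the 17301 genes of the deposited table. They are the isocitrate lyase gene ICL1 (Cre06.g282800.t1.1), the citrate synthase gene CIS2 (Cre03.g149100.t1.1), the malate dehydrogenase gene MDH2 (Cre10.g423250.t1.1), the acetyl-CoA synthetase gene ACS3 (Cre07.g353450.t1.1), the phosphoenolpyruvate carboxykinase gene PCK1 (Cre02.g141400.t1.1) and the fructose-1,6-bisphosphatase gene FBP1 (Cre12.g510650.t1.1). Both IDs listed for the malate synthase gene MAS1 (Cre03.g144807 and Cre03.g144800) had no row, so malate synthase was not analysed here. Symbols follow the list, since the table gives IDs only. No source used here states the genome build, and no genome position is printed.

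Cells grew in light in TAP, an acetate-containing medium, and were then washed and resuspended without ammonium chloride. The mutant was sta6 (CC-4348), which lacks starch per the series title. It was set against 3 strains that the design text calls STA6 strains and independent of each other, STA6-C2 (CC-4565), STA6-C4 (CC-4566) and STA6-C6 (CC-4567), called rescued strains below, and against CC-4349, the wild type of the design text. A first library set held sta6 and CC-4349 at 0, 0.5, 2, 4, 8, 12, 24 and 48 h, and a second set held all 5 strains at 0.5, 4 and 48 h. All 31 samples are labelled as nitrogen-free, the 0 h samples included. Each strain and time had 1 sample per set, no source ties samples to separate cultures, and how the rescued strains were made or whether CC-4349 is the parent of sta6 is not stated in the labels.

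Algae that take up acetate first join it to coenzyme A, the step of acetyl-CoA synthetase. The glyoxylate cycle then builds acids with more carbon from acetyl-CoA by skipping the steps of the citric acid cycle that release carbon dioxide. Isocitrate lyase and malate synthase are the enzymes particular to that bypass, whereas citrate synthase and malate dehydrogenase reactions occur in both cycles. Phosphoenolpyruvate carboxykinase leads oxaloacetate into gluconeogenesis, and fructose-1,6-bisphosphatase acts further along that route and in the Calvin cycle.

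Values were read as FPKM, reads per length of gene and per sequencing depth. The unit was inferred from the values, and RPKM, also per length, would look the same. Column sums lay between 552025 and 889042 FPKM. The transcript Cre03.g188250.t1.1, singled out after its values were seen, was at most 2.55 FPKM in the 11 sta6 libraries and at least 98.2 FPKM in the 20 others, so every library labelled sta6 stood apart from the rest at this locus. First-set samples had a pair of columns each, which were averaged. Paired columns of the 6 genes differed by more than 1 on the log2 scale in 3 of 96 pairs, all of them ICL1. The widest was ICL1 in sta6 at 8 h, with 41.1 FPKM in one column and 318 FPKM in the other. First-set CC-4349 stood apart in the spacing of its low values: of these, between 31.6% and 51.8% per column formed ratios of small whole numbers with a second-set column, against 72.1% to 90.2% in first-set sta6 and 66.9% to 87.6% in the second set. ICL1 in CC-4349 differed up to 69.4-fold between the sets at 1 time. Unlike cultures and libraries that hold another sample than their label says cannot be told apart there, which touches every CC-4349 value below.

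The main question was how sta6 differed from the rescued strains. Early in starvation sta6 held less transcript of ICL1, CIS2, ACS3 and PCK1 than any rescued strain. At 48 h it lay above all 3 rescued strains for these genes, where of them only ICL1 passed the test. How many of all genes lay outside the rescued range was not counted. ICL1, one of the enzymes particular to the glyoxylate cycle, showed the widest swing. It was 103 FPKM in sta6 at 0.5 h, against 774, 613 and 1018 FPKM in STA6-C2, STA6-C4 and STA6-C6. At 4 h it was 139 FPKM in sta6, against 1198, 1341 and 1232 FPKM in the same 3 strains. The sta6 library thus lay below every rescued library at both times, by factors of 7.76 and 9.05 from the rescued mean. At 48 h the order was turned round, with 833 FPKM in sta6, against 276, 110 and 156 FPKM in STA6-C2, STA6-C4 and STA6-C6. There the sta6 value was 4.61 times the rescued mean of 181 ± 85.8 FPKM (SD, n = 3). On the log2(FPKM + 1) scale the fitted difference of ICL1, sta6 minus rescued, was -2.91 ± 0.44 (SE) at 0.5 h, -3.17 ± 0.44 at 4 h and 2.30 ± 0.44 at 48 h. The adjusted p by limma was 0.00569, 0.00688 and 0.0491. The first-set sta6 libraries, which share no column with these, had 34.4, 53.1 and 665 FPKM at the same times and lay on the same sides of all 3 rescued strains. The rescued libraries were the same second-set ones. With first-set sta6 in place of the second, 64.1%, 20.8% and 18.2% of all genes passed at these times. The shares were 16.2%, 4.95% and 1.60% with second-set sta6.

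**Figure D1:**
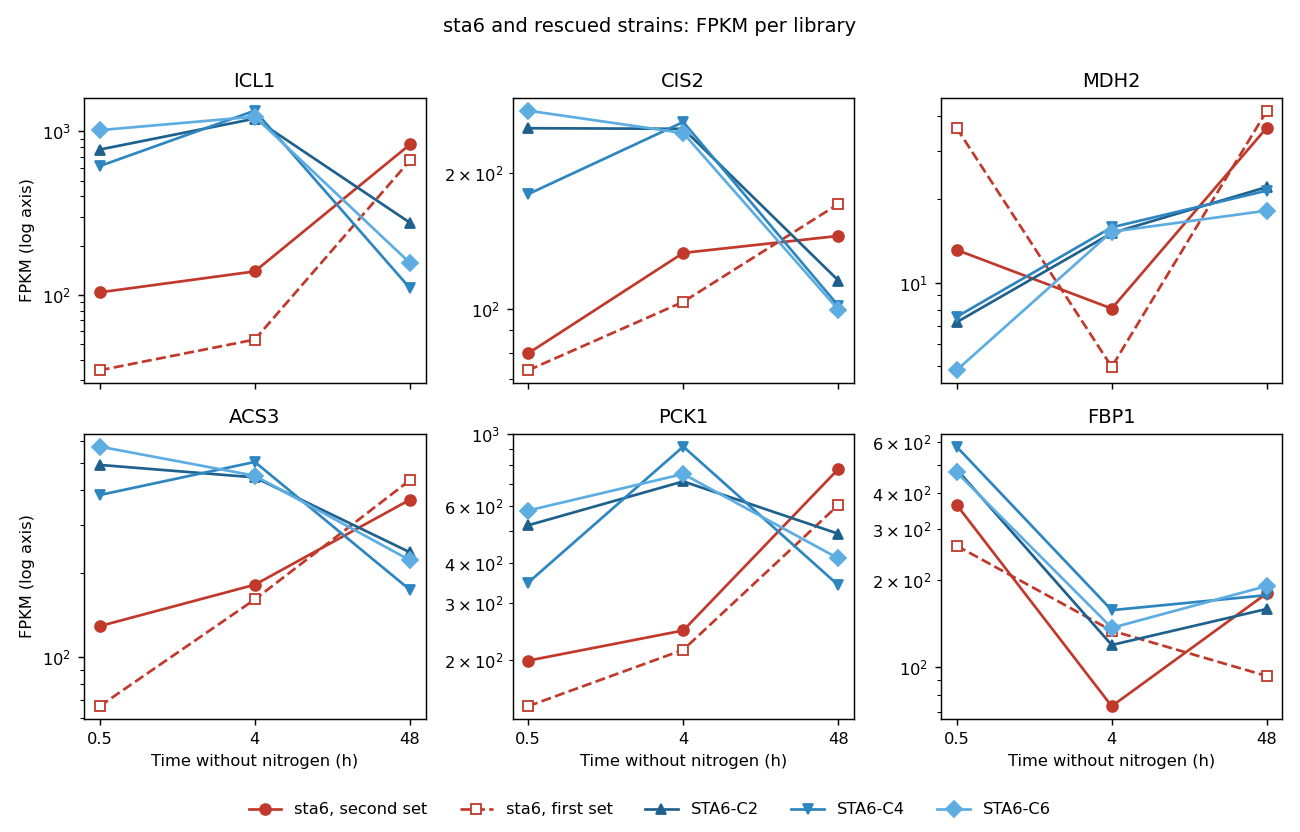
FPKM (log axis) of the 6 genes at 0.5, 4 and 48 h in sta6 of both library sets (red, filled for the second set and open for the first) and in the 3 rescued strains (blue), 1 point per library. For ICL1, CIS2, ACS3 and PCK1 both red lines lie below the blue points at 0.5 and 4 h and above them at 48 h, as with ICL1 at 103 FPKM in sta6 against 613 to 1018 FPKM in rescued strains at 0.5 h.

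CIS2, which joins acetyl-CoA to oxaloacetate to make citrate, followed ICL1 with smaller steps. At 0.5 h it was 79.8 FPKM in sta6, against 252, 179.8 and 275 FPKM in STA6-C2, STA6-C4 and STA6-C6. At 4 h sta6 had 133 FPKM, against 251, 259.8 and 246 FPKM in the rescued strains. The rescued values at 4 h lay within 1.06-fold of each other, so the gap to sta6 was far wider than their spread. At 48 h sta6 had 145 FPKM, against 116, 102 and 99.7 FPKM. Differences were -1.53 ± 0.20 (SE), -0.91 ± 0.20 and 0.46 ± 0.20 (log2), with limma adjusted p of 0.00164, 0.0263 and 0.227. CIS2 was therefore lower at the 2 early times, and its 48 h difference did not pass. First-set sta6 was close at every time, with 73.2, 104 and 171 FPKM.

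MDH2, which converts malate to oxaloacetate, was the scarcest of the 6 genes and had its own order. At 0.5 h it was 13.2 FPKM in sta6, against 7.20, 7.53 and 4.83 FPKM in STA6-C2, STA6-C4 and STA6-C6. At 4 h it was 8.07 FPKM in sta6, against 15.1, 15.9 and 15.3 FPKM. At 48 h it was 36.4 FPKM in sta6, against 22.2, 21.5 and 18.2 FPKM. The sta6 library was above, below and again above all rescued libraries, whereas each rescued strain had more MDH2 at each later time. Differences were 0.93 ± 0.20 (SE), -0.86 ± 0.20 and 0.79 ± 0.20 (log2), with limma adjusted p of 0.0130, 0.0367 and 0.0805. First-set sta6 lay on the same sides with 36.3, 4.97 and 41.8 FPKM, though at 0.5 h the sets differed by more than the rescued strains did. The sta6 samples of the sets also lay further from each other there than second-set sta6 lay from the rescued mean. Second-set sta6 was 0.363 times first-set sta6 and 2.02 times the rescued mean.

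ACS3, which activates acetate, had 129 FPKM in sta6 at 0.5 h, against 493, 384 and 574 FPKM in STA6-C2, STA6-C4 and STA6-C6. At 4 h it had 182 FPKM in sta6, against 444, 505 and 451 FPKM. At 48 h it had 369 FPKM in sta6, against 238, 175 and 223 FPKM. Within sta6 the transcript went up at each step, while in each rescued strain 48 h was the lowest time. Differences were -1.88 ± 0.22 (SE), -1.35 ± 0.22 and 0.81 ± 0.22 (log2), with limma adjusted p of 0.00109, 0.00730 and 0.0958. First-set sta6 had 66.4, 161 and 434 FPKM, in the same positions relative to the rescued strains.

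PCK1, the entry to gluconeogenesis, had 199 FPKM in sta6 at 0.5 h, against 522, 347 and 579.7 FPKM in STA6-C2, STA6-C4 and STA6-C6. At 4 h it had 247 FPKM in sta6, against 714, 915 and 752 FPKM. At 48 h it had 780.2 FPKM in sta6, against 491, 340.2 and 412 FPKM. The 1 sta6 library lay outside the rescued range at each time, a position whose share over all genes was not counted. Differences were -1.24 ± 0.28 (SE), -1.67 ± 0.28 and 0.93 ± 0.28 (log2), with limma adjusted p of 0.0185, 0.0110 and 0.126. First-set sta6 had 144, 215 and 604 FPKM.

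FBP1 behaved unlike the others. At 0.5 h it was 365 FPKM in sta6, against 484, 579.8 and 473 FPKM in STA6-C2, STA6-C4 and STA6-C6. At 4 h it was 73.2 FPKM in sta6, against 119, 157 and 137 FPKM. At 48 h it was 180.1 FPKM in sta6, inside the rescued range of 159 to 191 FPKM. Differences were -0.48 ± 0.17 (SE), -0.89 ± 0.17 and 0.040 ± 0.17 (log2), with limma adjusted p of 0.0793, 0.0159 and 0.921. First-set sta6 followed another course: it had 263, 134 and 93.0 FPKM, within the rescued range at 4 h and below it at 48 h. With first-set sta6 in place of the second set, the 4 h difference of FBP1 was -0.034 (limma adjusted p = 0.907).

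Counted together, 5 of the 6 genes passed at 0.5 h, 4 of them lower in sta6 and MDH2 higher, where 16.2% of all 14982 genes tested passed (8.24% lower and 8.01% higher). At 4 h all 6 passed and were lower in sta6, where 4.95% of genes passed (2.59% lower). At 48 h ICL1 passed and was higher, where 1.60% of genes passed (0.607% higher). The median difference over the 6 genes was -1.38 at 0.5 h, -1.13 at 4 h and 0.80 at 48 h (log2), beside 0.036, 0.029 and -0.15 over all genes. The 3 times share no library, but the spread in these fits came from the rescued strains alone, and 1 sta6 library stood for the mutant at each time. That spread was pooled over the 3 times for each gene, so the tests at the 3 times are not independent. For ICL1 the rescued strains lay within 1.12-fold of each other at 4 h and within 2.52-fold at 48 h, but the SE was the same. With 1 rescued strain left out, several calls were lost while the differences stayed about as large. Which calls were lost depended on the strain left out, and the cause was not tested. At 0.5 h this held for ICL1 without STA6-C6 (-2.73, limma adjusted p = 0.0559) and for PCK1 without STA6-C2 (-1.17, 0.0557) or STA6-C6 (-1.09, 0.0821). At 4 h it held for ICL1 without STA6-C6 (-3.18, limma adjusted p = 0.0674), CIS2 without STA6-C2 (-0.92, 0.0784), FBP1 without STA6-C4 (-0.79, 0.05001) and MDH2 without STA6-C2 (-0.87, 0.0863) or STA6-C4 (-0.84, 0.115). MDH2 at 4 h also missed the threshold with no trend or robust step (-0.86, limma adjusted p = 0.0513). At 48 h ICL1 was 2.00 without STA6-C4 (limma adjusted p = 0.0728), 2.25 without STA6-C6 (0.223) and 2.53 after quantile normalization (0.0602).

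**Figure D2:**
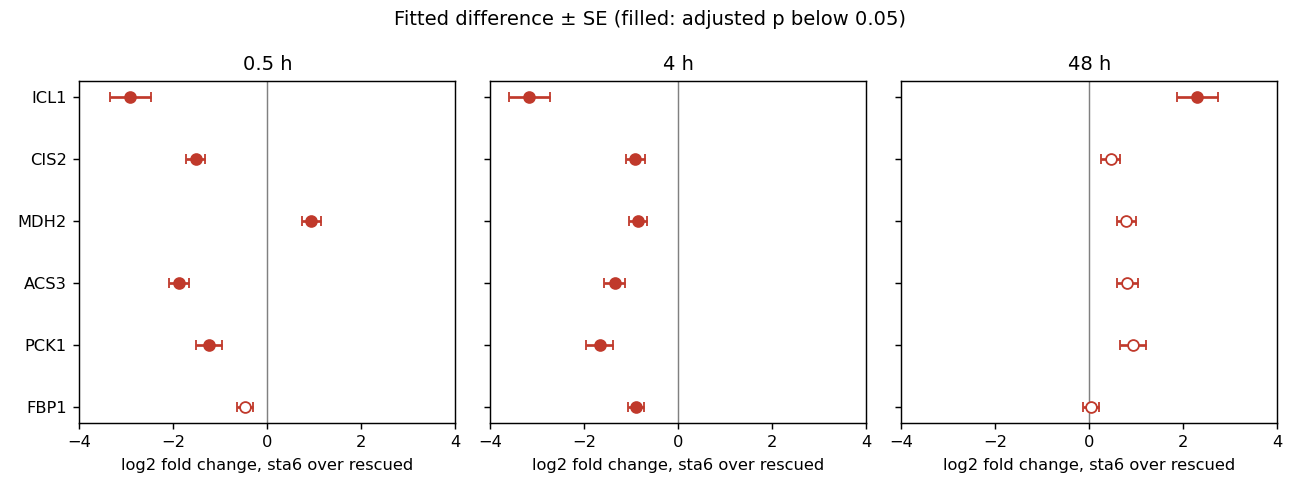
Fitted log2 fold change of sta6 over the rescued strains at 0.5, 4 and 48 h on the log2(FPKM + 1) scale, with bars of 1 SE; filled points passed limma at an adjusted p of 0.05. ICL1 lies at -2.91, -3.17 and 2.30, and all 6 points are left of 0 at 4 h.

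A further fit took sta6 libraries of both sets, so that the mutant had 2 libraries per time, while every rescued library was from the second set. It had no term for the set, so differences between the sets enter the sta6 mean and the spread. In that fit the 0.5 h calls of all 5 genes and the 4 h calls of ICL1, CIS2, ACS3 and PCK1 were made. There 21.3% of all genes passed at 0.5 h and 2.30% at 4 h. At 4 h ICL1 then differed by -3.85 (limma adjusted p = 0.00124), CIS2 by -1.09 (0.00789), ACS3 by -1.44 (0.0105) and PCK1 by -1.77 (0.00209). MDH2 (-1.16, limma adjusted p = 0.0992) and FBP1 (-0.46, 0.528) no longer passed at 4 h. At 48 h none of the 6 passed in that fit, ICL1 included (2.14, limma adjusted p = 0.0770), where 0.728% of all genes passed.

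Averaged over the 3 times, the difference between sta6 and the rescued strains passed for none of the 6 genes by limma, and none had an unadjusted p under 0.05; 0.741% of all genes passed. For ICL1, CIS2, ACS3 and PCK1, early and late differences of opposite sign offset each other only in part, and the average was -1.26 ± 0.93 (SE, log2) for ICL1. The fit holds 1 difference for all times, so a difference in course between sta6 and the rescued strains enters its spread. The SE of ICL1 was 0.44 in the fit with 1 mean per class and time. That fit takes the libraries of a strain as independent. With 1 value per strain, ACS3 (-0.81, limma adjusted p = 0.0180), CIS2 (-0.66, 0.0248) and PCK1 (-0.66, 0.0333) were lower in sta6, where 3.43% of all genes passed. Without the 48 h libraries 4 genes were lower in sta6, where 5.48% of all genes passed, at -3.04 for ICL1 (limma adjusted p = 0.000281), -1.61 for ACS3 (0.00773), -1.22 for CIS2 (0.0362) and -1.46 for PCK1 (0.0318).

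Whether the course over time differed was tested directly as the change from 0.5 to 48 h in sta6 minus that in the rescued strains. ICL1 at 48 h was 8.06 times its 0.5 h level in sta6, whereas its 48 h level was between 0.154 and 0.356 of its 0.5 h level in the rescued strains. PCK1 was 3.92 times its early level in sta6 and stood at 0.711 to 0.981 of its early level in the rescued strains. ACS3 was 2.86 times its early level in sta6 and stood at 0.389 to 0.484 in the rescued strains, and CIS2 was 1.82 times its early level in sta6 and stood at 0.362 to 0.565. All 4 changes differed, by 5.22 ± 0.63 (SE) for ICL1, 2.69 ± 0.31 for ACS3, 2.17 ± 0.40 for PCK1 and 1.99 ± 0.28 for CIS2 (log2), with limma adjusted p of 0.00928, 0.00339, 0.0177 and 0.00853. These were 4 of the 6 genes, where 10.9% of all genes passed (3.63% higher), and the median difference was 2.08 over the 6 genes and -0.18 over all genes. MDH2 was 2.76 times its early level in sta6 and 2.86 to 3.77 times in the rescued strains (difference -0.14 ± 0.28, limma adjusted p = 0.773), and FBP1 differed by 0.52 ± 0.24 (0.165). Without STA6-C6 the differences of ICL1 (4.98, limma adjusted p = 0.0620) and PCK1 (2.02, 0.0734) stayed about as large and missed the threshold, while CIS2 and ACS3 passed.

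Second-set CC-4349 had the highest levels of ICL1, CIS2, ACS3 and PCK1 of the 5 strains at 0.5 h, and the lowest of ICL1, ACS3 and PCK1 at 48 h. ICL1 in CC-4349 was 3113, 2050.2 and 63.3 FPKM at 0.5, 4 and 48 h, a 49.2-fold drop. ACS3 was 1409, 673 and 172 FPKM, PCK1 was 1107, 587 and 68.0 FPKM, and CIS2 was 599.8, 286 and 147 FPKM at the same times. At 0.5 h the rescued strains lay between sta6 and CC-4349 for ICL1, CIS2, ACS3 and PCK1. At 48 h they lay between them for ICL1, ACS3 and PCK1, with sta6 at the top and CC-4349 at the bottom. MDH2 in CC-4349 changed little, with 19.0, 24.3 and 20.4 FPKM, and FBP1 was 291, 231 and 98.7 FPKM.

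Over the 3 times, sta6 minus CC-4349 in the second set passed for 1 of the 6 genes, CIS2, which was lower (-1.34 ± 0.38 SE, log2; limma adjusted p = 0.0199), where 26.8% of all genes passed (15.6% lower). CIS2 did not pass without the 0.5 h libraries (-0.56, limma adjusted p = 0.267) or the 4 h libraries (-1.46, 0.128), nor with no replicate block for time (0.161). ICL1 (-1.69 ± 1.13), PCK1 (-0.073 ± 0.76) and ACS3 (-1.41 ± 0.55) had large standard errors. For these 3 genes the sign of sta6 minus CC-4349 at 48 h was opposite to that at 0.5 h. Without the 48 h libraries ICL1 (-4.39, limma adjusted p = 9.28e-06), ACS3 (-2.66, 0.000164) and PCK1 (-1.86, 0.00423) were lower in sta6 as well, where 42.6% of all genes passed. Rescued strains minus CC-4349 passed for none of the 6 genes by limma, with 2 at an unadjusted p under 0.05, where 32.4% of all genes passed. In that comparison, without the 48 h libraries, ICL1 was lower in the rescued strains (-1.35, limma adjusted p = 0.00224), as were ACS3 (-1.04, 0.00728), CIS2 (-0.77, 0.0466) and MDH2 (-1.03, 0.0265), where 42.2% of all genes passed. Without the 4 h libraries FBP1 was higher in the rescued strains (0.81, limma adjusted p = 0.0109), where 13.9% of all genes passed. These comparisons share the second-set libraries.

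Changes common to the 5 strains of the second set were few. From 0.5 to 4 h only FBP1 passed, lower at 4 h in each strain (-1.66 ± 0.28 SE, log2; limma adjusted p = 0.00172), where 22.4% of genes passed (9.73% lower). From 4 to 48 h only CIS2 passed, being lower (-0.92 ± 0.32 SE, log2; limma adjusted p = 0.0306), where 51.7% of genes passed (28.0% lower). In sta6 itself CIS2 was not lower, at 145 FPKM at 48 h against 133 FPKM at 4 h. CIS2 did not pass after quantile normalization (-0.63, limma adjusted p = 0.120). With 1 rescued strain fewer its change stayed about as large and missed the threshold, at -0.87 without STA6-C2 (limma adjusted p = 0.109), -0.81 without STA6-C4 (0.117) and -0.82 without STA6-C6 (0.113).

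The first set followed sta6 and CC-4349 from the 0 h sample on. ICL1, CIS2, PCK1, ACS3 and MDH2 all dropped within the first 4 h in both strains. At 48 h they stood at between 49.3% (CIS2) and 102% (PCK1) of the 0 h level in sta6, and at between 7.47% (ICL1) and 52.8% (MDH2) in CC-4349. In CC-4349 the 48 h level was only 1.29 times the lowest for ICL1 and 1.11 times for ACS3. ICL1 in sta6 was 1013, 34.4, 30.0, 53.1, 179.8, 142, 656 and 665 FPKM over the 8 times in order. In CC-4349 it was 511, 108, 141, 29.5, 72.5, 96.6, 57.9 and 38.2 FPKM at those times. Its lowest value was 2.96% of the 0 h level in sta6 and 5.78% in CC-4349, but at 48 h it stood at 65.6% in sta6, against 7.47% in CC-4349.

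PCK1 separated the strains from 4 h on. In sta6 it was 594, 144, 78.3, 215, 330.2, 354, 579 and 604 FPKM from 0 to 48 h. In CC-4349 it was 495, 142, 95.1, 26.7, 44.2, 76.3, 77.2 and 80.0 FPKM. The strains were close up to 2 h, and the ratio of sta6 to CC-4349 was widest at 4 h, 8.04-fold. At 48 h PCK1 stood at 102% of its 0 h level in sta6 and at 16.2% in CC-4349.

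ACS3 in sta6 was 489.7, 66.4, 109, 161, 282, 260.0, 486 and 434 FPKM from 0 to 48 h. In CC-4349 it was 384, 128, 155, 123, 199, 216, 149 and 137 FPKM. CIS2 in sta6 was 347, 73.2, 57.4, 104, 165, 142, 179 and 171 FPKM, and in CC-4349 it was 244, 51.7, 97.5, 88.7, 119, 133, 97.3 and 103 FPKM. At 48 h CIS2 thus stood at 49.3% of its 0 h level in sta6 and 42.1% in CC-4349, a much smaller gap than for ICL1.

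MDH2 had its trough at 2 h in both strains. In sta6 it was 52.3, 36.3, 1.59, 4.97, 14.96, 16.3, 34.2 and 41.8 FPKM from 0 to 48 h. In CC-4349 it was 39.7, 11.1, 3.38, 9.63, 18.0, 21.5, 18.6 and 21.0 FPKM. The trough was 3.03% of the 0 h level in sta6 and 8.52% in CC-4349. FBP1 had no such trough: it peaked at 291 FPKM at 2 h in sta6 and at 603 FPKM at 0.5 h in CC-4349. It ended at 93.0 FPKM in sta6, against 218 FPKM in CC-4349.

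**Figure D3:**
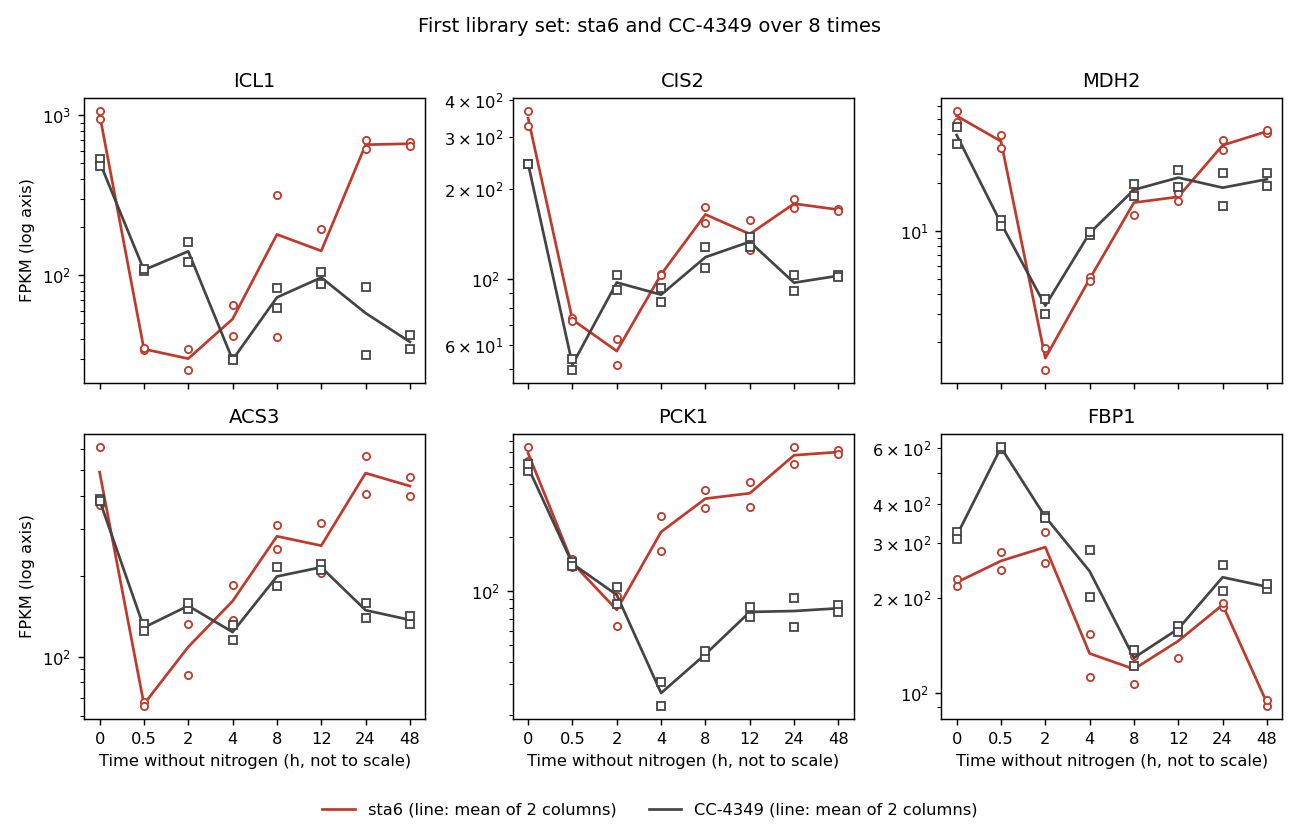
FPKM (log axis) of the 6 genes in first-set sta6 (red) and CC-4349 (grey) at 8 times without nitrogen; open points are the paired columns of a sample and lines join their means. ICL1 falls to 30.0 FPKM in sta6 and is back at 665 FPKM by 48 h, against 38.2 FPKM in CC-4349.

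With both strains in 1 fit, 5 of the 6 genes passed at 2 h against 0 h and were lower, where 54.5% of all 15108 genes passed (14.7% lower). They were MDH2 (-3.79 ± 0.54 SE, log2; limma adjusted p = 0.000578), ICL1 (-3.44 ± 1.26; 0.0388), PCK1 (-2.64 ± 0.85; 0.0240), CIS2 (-1.94 ± 0.33; 0.00134) and ACS3 (-1.73 ± 0.55; 0.0228). Over all genes the median was 0.53 in the deposited values and 0.12 once quantile-normalized, so these 5 genes lay opposite to the general shift and FBP1 (0.29) did not. The median of the 6 genes was -2.29. After quantile normalization ICL1 (-3.07, limma adjusted p = 0.0835), PCK1 (-2.35, 0.0643) and ACS3 (-1.58, 0.0593) did not pass, and ICL1 did not with no filter on low values (0.05004) or with run 2 columns only (0.0625). At 8 h CIS2 (-1.05 ± 0.33 SE; limma adjusted p = 0.0253) and FBP1 (-1.10 ± 0.31; 0.0157) passed, where 47.4% of genes passed (9.92% lower). CIS2 did not pass at 8 h after quantile normalization (limma adjusted p = 0.0745) or with run 2 columns only (0.0672). At 48 h CIS2 (-1.13 ± 0.33 SE; limma adjusted p = 0.0180) and FBP1 (-0.90 ± 0.31; 0.0338) passed, where 49.7% of genes passed (11.8% lower). Neither passed after quantile normalization (limma adjusted p = 0.104 for CIS2 and 0.236 for FBP1), nor FBP1 with run 1 columns only (0.0526). All these contrasts share the 0 h samples, and strain differences in the course enter their spread.

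Over 8 pairs of the same time, sta6 minus CC-4349 in the first set passed for 2 of the 6 genes, where 42.2% of all genes passed (9.22% higher and 33.0% lower). PCK1 was higher in sta6 (1.73 ± 0.43 SE, log2; limma adjusted p = 0.00904; higher in 7 of 8 pairs). FBP1 was lower (-0.58 ± 0.16; limma adjusted p = 0.0136; lower in 8 of 8 pairs), and did not pass with no replicate block for time (0.216). ICL1 (0.93 ± 0.63, limma adjusted p = 0.255) was higher in 6 of 8 pairs, with the widest ratio at 48 h, 17.4-fold. CIS2 (0.33 ± 0.17, limma adjusted p = 0.135) passed without the 2 h libraries (0.48, 0.0170), where 34.1% of all genes passed. Over all genes the median was -0.25 in the deposited values and -0.041 once quantile-normalized. The low values of these CC-4349 columns were spaced unlike those of all other columns, so strain and quantification cannot be told apart in this comparison.

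The library sets could be compared at the shared times. For sta6, ICL1, CIS2, PCK1 and ACS3 were higher at each later time of the 3 in both sets. There the second-set value of CIS2 was 1.09, 1.28 and 0.849 times the first-set value at 0.5, 4 and 48 h, that of PCK1 1.38, 1.15 and 1.29 times, that of ACS3 1.94, 1.13 and 0.850 times and that of ICL1 3.001, 2.62 and 1.25 times. MDH2 in sta6 was 0.363, 1.62 and 0.869 times. FBP1 was 1.39, 0.548 and 1.94 times, being higher at 48 h than at 4 h in the second set and lower in the first. In CC-4349 the sets lay further apart. Second-set ICL1 was 28.9 times the first-set level at 0.5 h and 69.4 times at 4 h, but 1.66 times at 48 h. PCK1 was 7.77, 22.0 and 0.850 times, and ACS3 11.0, 5.45 and 1.25 times. For ICL1, CIS2, PCK1 and ACS3 the CC-4349 samples of the 2 sets thus lay further apart at 0.5 and 4 h than sta6 and the rescued mean did. At 0.5 h sta6 was below CC-4349 in both sets for ICL1 (0.0332 and 0.320 of its level in the second and first set) and ACS3 (0.0916 and 0.517), but CIS2 was 0.133 and 1.42 times and PCK1 0.1796 and 1.01 times. At 4 h sta6 lay below CC-4349 in the second set and above it in the first for these 4 genes, and below it in both sets for MDH2 and FBP1. At 4 h ICL1 was 0.0678 of the CC-4349 level in second-set sta6 and 1.80 times the CC-4349 level in first-set sta6. At 48 h both sets had more ICL1 in sta6, 13.1 and 17.4 times. The difference between the sets in sta6 minus CC-4349, a test added after the data were seen, passed for none of the 6 genes by limma, with 1 (CIS2) at an unadjusted p under 0.05, where 2.75% of all genes passed.

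**Figure D4:**
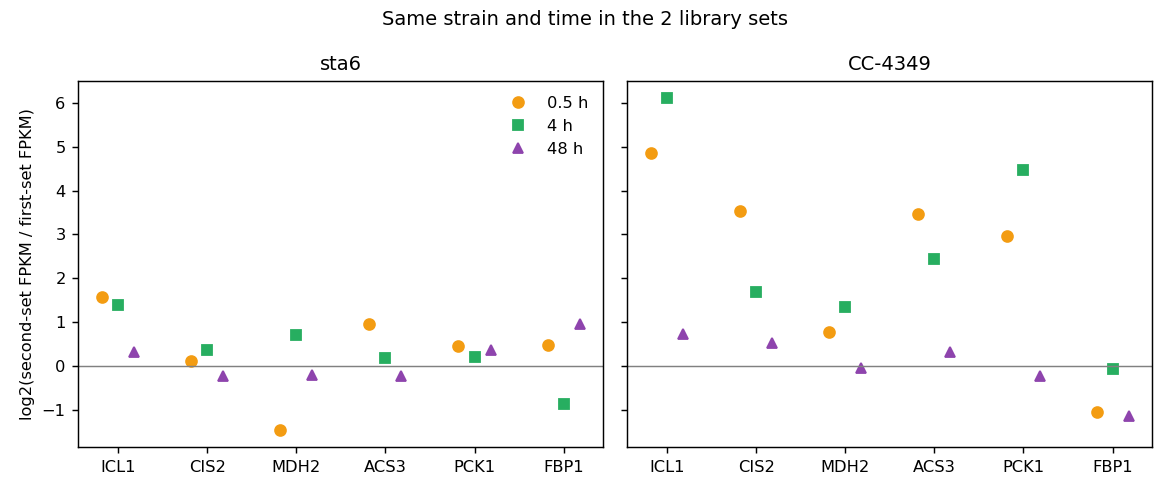
Log2 ratio of second-set to first-set FPKM for sta6 (left) and CC-4349 (right) at 0.5, 4 and 48 h, 1 point per gene and time. The sta6 points stay between 0.363-fold and 3.001-fold, while CC-4349 reaches 69.4-fold for ICL1 at 4 h and lies between 0.453-fold and 1.66-fold at 48 h.

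The genes varied together unequally. Over the 31 libraries Pearson's r of log2(FPKM + 1) with ICL1 was 0.945 for ACS3, 0.876 for PCK1, 0.869 for CIS2, 0.271 for MDH2 and 0.0752 for FBP1 (Spearman's rho 0.937, 0.924, 0.858, 0.199 and -0.0137). Without the 2 libraries farthest from the median of ICL1, r was 0.938, 0.872, 0.840, 0.248 and 0.0259. Within the first set (16 libraries) and the second (15 libraries) r with ICL1 was 0.922 and 0.949 for ACS3, 0.838 and 0.859 for PCK1, and 0.821 and 0.871 for CIS2, whereas for MDH2 it was 0.588 and -0.0243, and for FBP1 -0.1797 and 0.304. Without the 2 libraries farthest from the median of ICL1, r for MDH2 was 0.425 among first-set libraries and 0.0424 among second-set ones. The difference between the sets was not tested. These libraries share strains and times, so the values describe the pattern.

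Among 6507 genes with a mean of at least 10 FPKM, those most like ICL1 were Cre15.g641200.t1.1 (r = 0.983), Cre01.g057800.t1.1 (0.970) and ACS3 (0.945). The same Cre15.g641200.t1.1 was the gene most like ACS3 (0.953) and the third most like PCK1 (0.869). CIS2 was nearest to ACS3 (0.934) and PCK1 to Cre01.g032650.t1.1 (0.887). MDH2 was nearest to Cre17.g723650.t1.1 (0.944) and FBP1 to Cre13.g562850.t1.1 (0.888). In all, 11 genes had r over 0.8 with ICL1 and 22 with FBP1.

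In level, the 6 genes stood high in the table except for MDH2. Over the 31 libraries ICL1 spanned 29.5 to 3113 FPKM, a 105-fold range, with a median of 156 FPKM. PCK1 spanned 41.4-fold (median 347 FPKM), MDH2 33.0-fold (18.0 FPKM), ACS3 21.2-fold (238 FPKM), CIS2 11.6-fold (142 FPKM) and FBP1 8.24-fold (191 FPKM). ICL1 exceeded at least 84.0% of all genes in every library, ACS3 92.8% and FBP1 93.7%, whereas MDH2 exceeded 25.5% in its lowest library and 90.8% in its highest.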

How the data were processed

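The table that the authors deposited was read as FPKM, a unit inferred from its values, which RPKM would fit equally. The submitters' processing notes name Bowtie with no version. Counter, build and annotation, and the number of reads in each sample, are not stated. In the second set most low values fell on multiples of a smallest step, taken as the value of 1 read, which spanned 2.82-fold between libraries; with no read totals, no counting interval was computed. Ratios of low values (under 0.2 FPKM) were counted as whole within 0.01 (log2) of a ratio of whole numbers up to 6.

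Groups are strain and time per the labels, and the sets follow the code in each title. Paired first-set columns were averaged as repeat runs, since both names match 1 sample. P-values measure the spread between samples, part of which may be technical.

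Tests used limma 3.58.1 in R 4.3.3 on log2(FPKM + 1), with trend and robust fitting, on genes that reached 1 FPKM in 3 or more of the libraries used. P-values were adjusted by Benjamini-Hochberg over all such genes, and 0.05 was the threshold. The added 1 makes fold changes of low genes too small. Models were time and class (sta6, rescued, CC-4349), 1 mean per class and time, or strain and time. In the models of time and class and of strain and time, differences in course between strains enter the spread. The fits were tested on simulated data with independent noise per library. Such data cannot check whether libraries of 1 strain may be taken as independent. Alternatives were quantile normalization, other filters, pseudocounts of 0.1 and 5, other sta6 libraries, 1 column of each first-set pair and leaving out strains or times. Python 3.11.15, numpy 2.4.6, pandas 2.3.3, scipy 1.17.1 and matplotlib 3.10.9 did the rest.

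The members and lists were chosen with earlier results of these data known. Each member is named. Genes of like pattern are the 3 with the highest r per member among genes with a mean of at least 10 FPKM. Other pathway genes were to be found by name in a reference table, which holds no symbol or product for these loci, so none is described.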

Additional observations from a re-analysis of the deposited data

Results flagged for a closer look

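For ICL1, CIS2, PCK1 and ACS3, limma's test of the difference itself found unlike changes from 0.5 to 48 h in sta6 and in the rescued strains. The difference (sta6 minus rescued, log2) was 5.22 for ICL1, 1.99 for CIS2, 2.17 for PCK1 and 2.69 for ACS3. The sta6 arm had 1 library per time. The fit with sta6 libraries of both sets had no term for the set, so differences between the sets enter it. In that fit the difference was 5.83 for ICL1 (limma adjusted p = 0.00195), 2.16 for CIS2 (0.00200), 2.22 for PCK1 (0.0121) and 3.28 for ACS3 (0.00179), where 3.85% of all genes passed.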

How the results depend on the processing

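Out of 810 values of single genes under the alternatives, 746 kept their side of the threshold, 36 lost it, 27 gained it and 1 changed sign with a call: FBP1 at 48 h was -0.91 (limma adjusted p = 0.00533) with first-set sta6 in place of the second set. Counts of the 6 genes passing moved as follows. For sta6 minus rescued strains over all times, 3 (ACS3, CIS2 and PCK1) passed with 1 value per strain, and 0 to 4 when a strain or time was left out. At 0.5 h leaving out a strain gave 3 to 5 (8.51% to 11.9% of all genes). At 48 h 0 passed after quantile normalization (1.40% of all genes), 2 with a pseudocount of 5 (1.54%) and 0 with sta6 of both sets (0.728%). With first-set sta6 in place 5 passed, 4 higher and FBP1 lower, where 18.2% of all genes passed. With a strain left out 0 to 1 passed (0.771% to 1.22%). For the change from 0.5 to 48 h, leaving out a strain gave 2 to 4 (1.77% to 7.75% of all genes). For sta6 minus CC-4349 in the second set 0 passed with no replicate block (8.26% of all genes). With a time left out 0 to 4 passed (8.98% to 42.6%), and 0 to 4 for rescued strains minus CC-4349 (13.9% to 42.2%). In the first set sta6 minus CC-4349 gave 1 with no replicate block (15.3% of all genes). At 2 h 2 passed after quantile normalization, where 42.0% of all genes passed. At 8 h 5 passed with run 1 columns only (34.3% of all genes) and 1 with run 2 columns only (51.1%). At 48 h 0 passed after quantile normalization (36.7%) and 1 with run 1 columns only (38.4%). From 4 to 48 h 0 passed after quantile normalization (55.9% of all genes) and 0 with any rescued strain left out (37.3% to 39.8%). The labels number no replicates, so no paired analysis beyond time was possible because samples share only strain and time. Over all genes, calls ran from 29 to 1942 for sta6 minus rescued strains (111 as reported), 1268 to 9635 at 0.5 h (2434), 348 to 3133 at 4 h (742), 110 to 2732 at 48 h (239), 263 to 7760 for the change over time (1634), 1237 to 6158 for sta6 minus CC-4349 in the second set (4012), 2044 to 6110 for rescued strains minus CC-4349 (4860), 2316 to 7754 for sta6 minus CC-4349 in the first set (6380), 1518 to 3976 from 0.5 to 4 h (3363) and 43 to 510 for the difference between sets (415). The causes were not tested.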
